A study of Mus musculus with 8 samples.

Results

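The genes described here encode 8 enzymes that work against methylation of H3K27, a lysine in the tail of histone H3; that mark is written by Polycomb repressive complex 2 (PRC2). They were taken by gene symbol from a table of quantile-normalized log2 gene counts, and all 8 were among its 20943 genes: the demethylases Kdm6a and Kdm6b, the acetyltransferases Crebbp and Ep300, the methyltransferases of H3K4, Kmt2c and Kmt2d, and those of H3K36, Nsd1 and Setd2. Poly-A RNA sequencing was done on 8 malignant peripheral nerve sheath tumors (MPNST) of mice, a sarcoma that arises in the Schwann cell lineage. The 3 PRC2 loss tumors came from mice with floxed Eed, Eed(f/f), a gene for a core subunit of PRC2, besides the alleles of the other group. The 5 PRC2 wildtype tumors came from mice with Nf1(f/f) and Cdkn2a(f/f) alone, alleles that both groups carried together with Plp-CreERT. Mice of both groups were given 0.4 mg of tamoxifen on days 0 to 3 of life, which activates the recombinase in cells that express Plp, and host cells within a tumor keep their alleles. The age of the mice at collection was not stated.

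PRC2 places methyl groups on H3K27 and keeps developmental genes silent. Kdm6a and Kdm6b remove those methyl groups. Crebbp and Ep300 acetylate the same lysine, and a lysine that carries an acetyl group cannot be methylated. Kmt2c and Kmt2d place H3K4 methylation at enhancers in complexes that also hold Kdm6a. Nsd1 and Setd2 methylate H3K36, a modification that hinders PRC2 on the same histone tail. In Schwann cells, PRC2 restrains injury-response genes, and in human MPNST its core subunits are often lost.

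Eed was lower in all 3 PRC2 loss tumors (8.76, 8.93 and 8.96) than in all 5 wildtype tumors (10.17 to 10.33). These are whole-gene log2 values, to which transcripts of the deleted allele can still add (log2 difference -1.36, SE 0.115; limma adjusted p = 0.00021). Several other features of the tumors also moved with the groups or set tumors apart. All 10 myelin markers were higher in PRC2 loss, with a summed linear value of 177700 to 326464 against 5412 to 17738 in wildtype. Of 10 macrophage markers 7 were lower and 1 higher (sums of 36120 to 48755 against 59685 to 131123). Of 9 T and NK cell markers 8 were lower (sums of 279 to 899 against 1620 to 5701). All 12 markers of dividing cells were lower (sums of 4680 to 7283 against 21544 to 47978), and 9 of 10 endothelial markers were higher (39627 to 70179 against 10042 to 16986). Of 9 fibroblast markers 2 were higher (612514 to 843641 against 402346 to 780862). None of these markers was at 0 in any tumor. None of 10 skeletal muscle markers passed the test, but wildtype tumors 1 and 2 had sums of 79231 and 57654, against 141 to 6371 in PRC2 loss and 215 to 581 in the other wildtype tumors; Myh2 was at 0 in wildtype tumors 3 and 5 and Mb in PRC2 loss tumor 1. PRC2 loss tumor 1 and wildtype tumor 5 expressed Y-linked genes. The sample descriptions carry 2 codes for the PRC2 loss tumors (tumors 2 and 3 share one, from the left and right sciatic nerves) and 3 for the wildtype tumors (1 with 2, and 3 with 4). The descriptions name a nerve for all 3 PRC2 loss tumors (the right paraspinal nerve for tumor 1) and none for the wildtype tumors, so that site and group cannot be told apart. Whether a shared code marks 1 mouse is not stated, and if it does, p-values that treat the 8 tumors as independent are too small. In these bulk samples fewer cells of a type and less RNA per cell cannot be told apart. The part of these differences in the results was not tested, apart from the fits named beside a result.

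Of the 8 genes, Crebbp rose in PRC2 loss tumors and none fell; the other 7 did not pass the test. That is 12.5% of the members, against 35.7% of all 20807 genes tested at a limma adjusted p of at most 0.05 (16% higher and 19.6% lower in PRC2 loss). The groups did not overlap for 2 of the 8, Crebbp and Ep300, against 38.3% of all genes tested. At an unadjusted limma p under 0.05, Crebbp and Kmt2c passed and no member was lower, against 46% of all genes in either direction. The median log2 difference of the 8 genes was 0.14, against -0.12 for all genes. The gene set used for centring mattered for direction. Setting every tumor to the same mean over 15 housekeeping genes, of which 8 were themselves lower in PRC2 loss, moved the median of all genes to 0.38 and the calls over all genes to 6607 higher and 1786 lower, against 3337 and 4087. With that centring 5 of the 8 genes were called higher, and the differences of Kdm6b, Ep300 and Setd2 changed sign. Centring instead on the median of the genes at or above the median mean gave 3423 higher and 3948 lower. Of the 8 genes only Crebbp was then called (0.55, limma adjusted p = 0.039). That centring can move little in values already quantile-normalized. All 8 genes were well expressed, with every value between 10.34 and 13.30, above 8.43, the median over genes of the mean value. Of the 10404 genes with a mean at or above that median, 39.6% were called, against 12.5% of the 8.

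**Figure D1:**
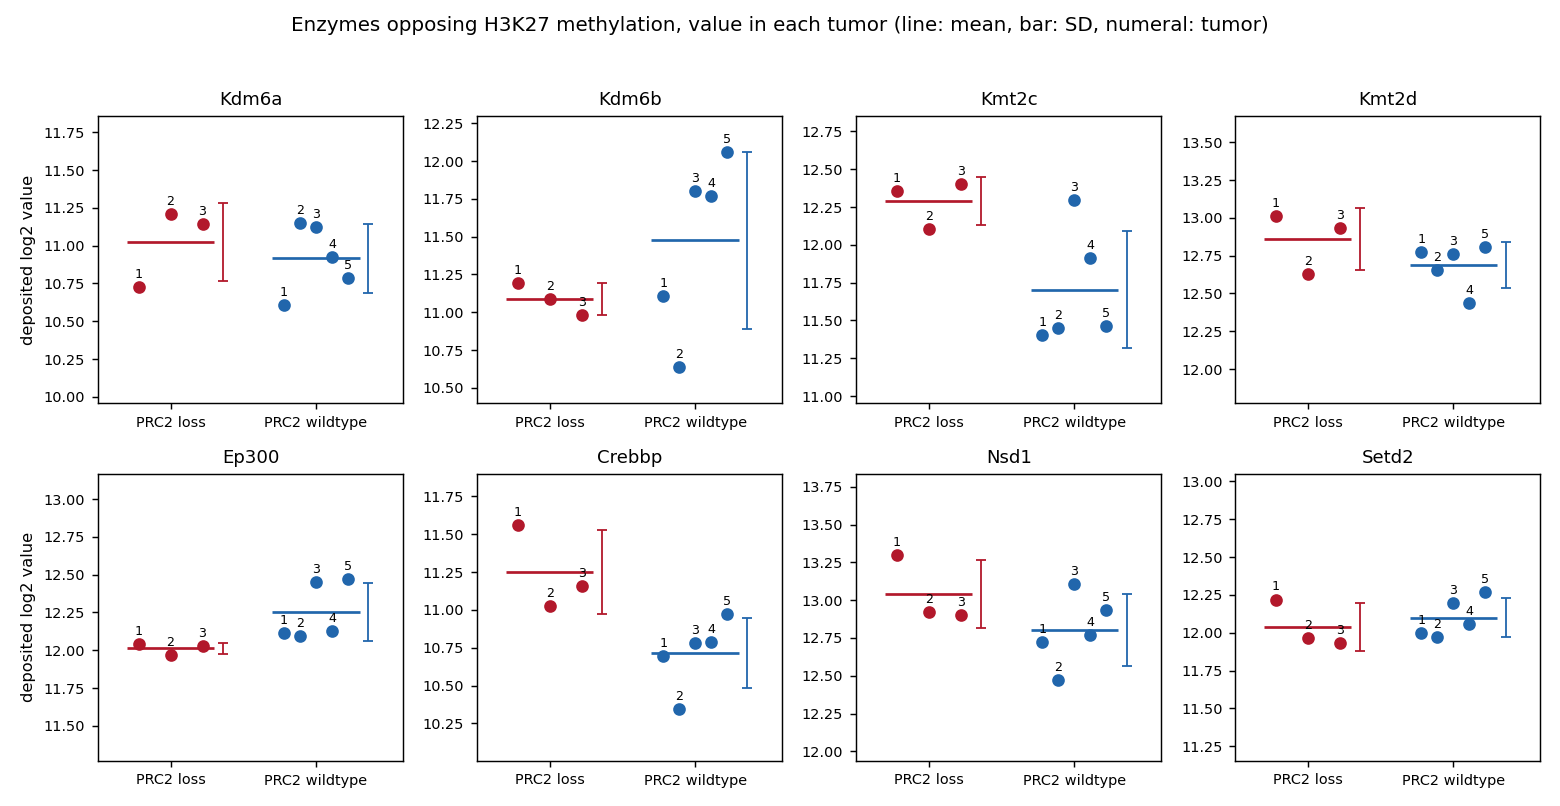
Deposited log2 value of each of the 8 genes (vertical axis, each panel spanning the same range) in the 3 PRC2 loss tumors (red, left) and the 5 PRC2 wildtype tumors (blue, right); numerals are tumor numbers, lines are means and bars are SDs. Crebbp lies above every wildtype tumor in all 3 PRC2 loss tumors and Ep300 below, and the wildtype values of Kdm6b and Kmt2c are spread widely.

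The acetyltransferase genes differed in direction, Crebbp higher in PRC2 loss tumors and past the test, Ep300 with a lower mean and not past it. Crebbp, which encodes CBP, lies in mm10 on chromosome 16 from 4081328 to 4213997 on the minus strand, and Ep300, which encodes p300, on chromosome 15 from 81585351 to 81652077 on the plus strand (GENCODE M21).

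Crebbp stood at 11.56, 11.03 and 11.16 in PRC2 loss tumors 1 to 3, against 10.70, 10.34, 10.78, 10.79 and 10.97 in wildtype tumors 1 to 5. Every PRC2 loss tumor was above every wildtype tumor, by a narrow margin between PRC2 loss tumor 2 and wildtype tumor 5. PRC2 loss tumors averaged 11.25 ± 0.28 (SD, n = 3) and wildtype tumors 10.72 ± 0.23 (SD, n = 5), 1.45-fold higher in PRC2 loss (log2 difference 0.53, SE 0.175; adjusted p from limma 0.0438). The 95% interval ran from 1.10-fold to 1.91-fold. Of the 56 ways to split the tumors, none gave a larger difference (exact permutation p = 0.0179, two-sided, the lowest possible here). The call held in 9 of 26 alternative fits. It was lost with the mean of the macrophage markers as a covariate (log2 difference -0.02; limma adjusted p = 0.980), whose sums do not overlap between the groups. It was also lost when any tumor but wildtype tumor 5 was left out (log2 difference 0.38 to 0.64; limma adjusted p = 0.151 without PRC2 loss tumor 1), without wildtype tumors 1 and 2 (0.40; limma adjusted p = 0.106), without both Y-expressing tumors (0.44; limma adjusted p = 0.110) and when tumors sharing a code were averaged (0.57; limma adjusted p = 0.125).

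Ep300 stood at 12.04, 11.97 and 12.03 in PRC2 loss tumors 1 to 3, against 12.12, 12.09, 12.45, 12.13 and 12.47 in wildtype tumors 1 to 5. The PRC2 loss tumors were the lowest and lay close together, and wildtype tumors 3 and 5 stood highest. PRC2 loss tumors averaged 12.01 ± 0.04 (SD, n = 3) and wildtype tumors 12.25 ± 0.19 (SD, n = 5), a log2 difference of -0.24 (SE 0.129) past no threshold (adjusted p from limma 0.184; exact permutation p = 0.107, two-sided). The 95% interval of the ratio ran from 0.691 to 1.04.

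Of the demethylases, Kdm6a, also called UTX, did not differ beyond the spread of the tumors. It is X-linked (chromosome X, 18162575 to 18279936) and escapes X inactivation in mice. Kdm6a stood at 10.73, 11.21 and 11.14 in PRC2 loss tumors 1 to 3, against 10.61, 11.15, 11.12, 10.92 and 10.78 in wildtype tumors 1 to 5. The ranges overlapped almost fully, and the Y-expressing tumors, PRC2 loss 1 and wildtype 5, were low in their groups together with wildtype tumor 1. The log2 difference was 0.11 (SE 0.170, limma adjusted p = 0.646; two-sided exact permutation p = 0.589), with a 95% interval of the ratio from 0.822 to 1.41. Without both Y-expressing tumors it was 0.22 (limma adjusted p = 0.420).

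Uty, the Y-linked relative of Kdm6a with weak demethylase activity, was 9.93 in PRC2 loss tumor 1 and at 0 in tumors 2 and 3, against 10.23 in wildtype tumor 5 and between 0 and 1.23 in the other wildtype tumors. Xist, the X inactivation RNA, was lowest in the same tumors, at 7.79 in PRC2 loss tumor 1 and 6.45 in wildtype tumor 5, against 15.16 to 16.36 elsewhere. Per kilobase of merged exon and on the linear scale, Uty made up 33% of the summed Kdm6a and Uty value in PRC2 loss tumor 1 and 36.8% in wildtype tumor 5. The summed value was 301, 282 and 269 in PRC2 loss tumors 1 to 3, against 187, 271, 266, 232 and 333 in wildtype tumors 1 to 5. With Uty added, the tumors that had low Kdm6a became the highest of their groups, apart from wildtype tumor 1, which stayed lowest.

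**Figure D2:**
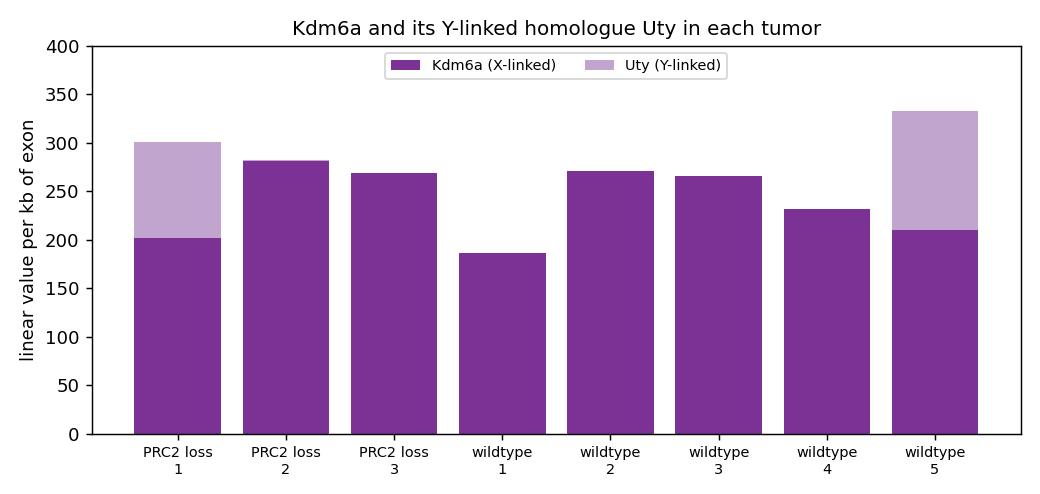
Linear value per kilobase of merged exon of Kdm6a (dark) with Uty stacked on it (light), 1 bar a tumor, PRC2 loss tumors left of wildtype tumors. Uty adds visibly in PRC2 loss tumor 1 (sum 301) and wildtype tumor 5 (sum 333) and not in the other 6 tumors.

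Kdm6b, also called JMJD3 and known as an inducible demethylase of activated macrophages and differentiating cells, was the most variable of the 8 genes (chromosome 11, 69398508 to 69413675). It stood at 11.19, 11.08 and 10.98 in PRC2 loss tumors 1 to 3, against 11.11, 10.64, 11.80, 11.77 and 12.06 in wildtype tumors 1 to 5. Wildtype tumors 3 to 5 were above every PRC2 loss tumor, whereas wildtype tumor 1 lay among them and wildtype tumor 2 below, the pair with the highest sums of all 8 tumors for skeletal muscle, macrophage (86996 and 131123) and T and NK cell markers (2945 and 5701). Over all 8 tumors the log2 difference was -0.39 (SE 0.308, limma adjusted p = 0.360; two-sided exact permutation p = 0.321), with a 95% interval of the ratio from 0.469 to 1.24. Without wildtype tumors 1 and 2 the log2 difference of Kdm6b was -0.79 (SE 0.133, limma adjusted p = 0.00524). With the skeletal muscle markers as a covariate it was -0.55 (limma adjusted p = 0.0419). Both alternatives were chosen after seeing the data. The muscle marker mean was 12.3 and 11.4 in wildtype tumors 1 and 2, against 3.3 to 9.0 elsewhere. The covariate thus largely sets apart the same tumors, those with the lowest wildtype Kdm6b, and is no separate support. With the macrophage markers as a covariate the log2 difference of Kdm6b was -1.56 (limma adjusted p = 0.0275). The macrophage sums of the groups do not overlap, and that covariate and the group cannot be told apart in full. The annotated antisense gene Kdm6bos shares up to 149 exonic bases with Kdm6b, Gm42585 up to 274 with Kmt2c and the miRNA gene Gm23880 54 with Ep300. Strand use in the counting was not stated, and reads from those stretches cannot be told apart.

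The H3K4 methyltransferase genes both had higher means in PRC2 loss tumors, and neither passed the test. Their promoters are shown because Kmt2c had the widest difference of the 8 genes and Kmt2d is its closest relative. Each is the 250 bases before the RefSeq start (build GRCm38.p6), chr5:25498784-25499033 on the minus strand for Kmt2c and chr15:98871206-98871455 on the minus strand for Kmt2d. Capitals mark the GC box, searched on both strands as GGGCGG or CCGCCC, with overlapping matches counted.
Kmt2c: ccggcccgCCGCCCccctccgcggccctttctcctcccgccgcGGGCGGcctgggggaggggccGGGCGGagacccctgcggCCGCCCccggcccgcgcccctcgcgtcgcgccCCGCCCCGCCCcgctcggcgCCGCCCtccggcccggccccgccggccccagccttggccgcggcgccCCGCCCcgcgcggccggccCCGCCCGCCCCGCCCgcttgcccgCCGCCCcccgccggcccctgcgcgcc
Kmt2d: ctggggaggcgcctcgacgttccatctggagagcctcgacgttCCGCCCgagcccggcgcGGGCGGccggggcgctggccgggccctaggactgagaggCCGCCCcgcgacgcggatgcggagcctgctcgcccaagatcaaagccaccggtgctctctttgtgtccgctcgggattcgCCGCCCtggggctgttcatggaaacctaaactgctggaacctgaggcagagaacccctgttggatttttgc
The Kmt2c window holds 48 CG dinucleotides, more than 99.8% of the 32851 RefSeq promoters of this length, and the Kmt2d window 26, more than 90.4% of them; the median is 6. Kmt2c has 12 GC boxes and Kmt2d 4, and 32.7% of all promoters have at least 1. Neither window holds the E-box CACGTG or the cyclic AMP response element TGACGTCA, which 6.02% and 1.55% of all promoters hold. RefSeq promoters were matched for 6 of the 8 genes; for Crebbp and Ep300 the RefSeq start lies 593 and 863 bases inside the GENCODE gene, and those windows were not used.

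Kmt2c (MLL3; chromosome 5, 25271798 to 25498783) stood at 12.36, 12.11 and 12.40 in PRC2 loss tumors 1 to 3, against 11.40, 11.45, 12.29, 11.92 and 11.46 in wildtype tumors 1 to 5. Wildtype tumors 1, 2 and 5 were low, and wildtype tumor 3 lay among the PRC2 loss tumors. The log2 difference was 0.58 (SE 0.221), the widest of the 8 genes, with an adjusted p from limma of 0.0703, an exact permutation p of 0.0536 (two-sided) and a 95% interval of the ratio from 1.06 to 2.13. Without wildtype tumor 3 it passed the test (0.73, limma adjusted p = 0.0147), and with the macrophage markers as a covariate the log2 difference was 0.03 (limma adjusted p = 0.969).

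Kmt2d (MLL4; chromosome 15, 98831669 to 98871204) stood at 13.01, 12.63 and 12.94 in PRC2 loss tumors 1 to 3, against 12.77, 12.65, 12.76, 12.43 and 12.81 in wildtype tumors 1 to 5. PRC2 loss tumors 1 and 3 were the highest of all 8, and tumor 2 lay within the wildtype range. The log2 difference was 0.17 (SE 0.138, limma adjusted p = 0.359; two-sided exact permutation p = 0.250), with a 95% interval of the ratio from 0.907 to 1.40.

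The H3K36 methyltransferase genes did not pass the test either. Nsd1, which places dimethylation (chromosome 13, 55209782 to 55318325), stood at 13.30, 12.92 and 12.90 in PRC2 loss tumors 1 to 3, against 12.72, 12.47, 13.11, 12.77 and 12.94 in wildtype tumors 1 to 5. PRC2 loss tumor 1 was highest of all 8 and the other two lay within the wildtype range, with a log2 difference of 0.24 (SE 0.170, limma adjusted p = 0.308; two-sided exact permutation p = 0.268) and a 95% interval of the ratio from 0.903 to 1.55. Setd2, which places trimethylation over transcribed genes (chromosome 9, 110532597 to 110618633), stood at 12.22, 11.96 and 11.93 in PRC2 loss tumors 1 to 3, against 12, 11.97, 12.20, 12.06 and 12.27 in wildtype tumors 1 to 5. Its log2 difference was the smallest of the 8 genes in size, at -0.06 (SE 0.120, limma adjusted p = 0.718; two-sided exact permutation p = 0.518), with a 95% interval of the ratio from 0.793 to 1.16.

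**Figure D3:**
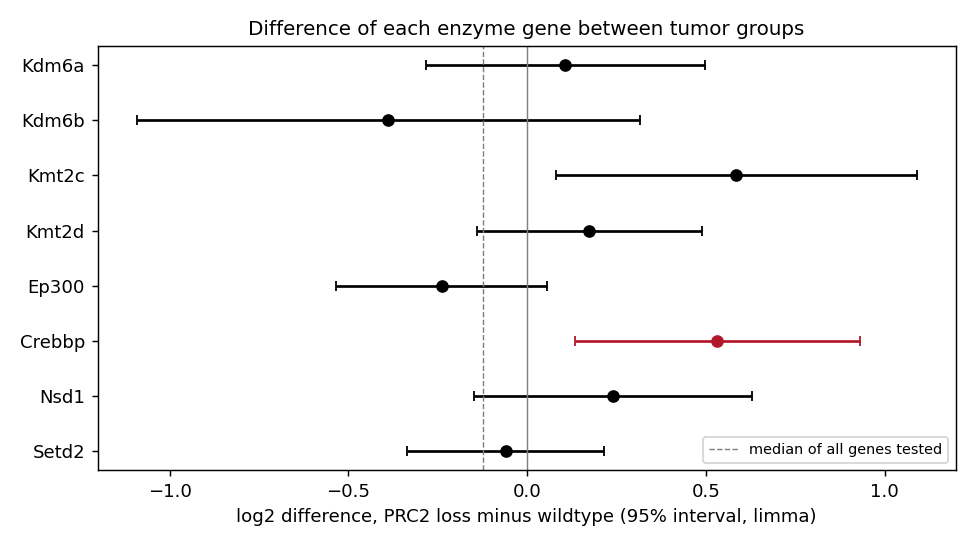
Log2 difference of each gene, PRC2 loss minus wildtype (horizontal axis), with its 95% interval from limma; the dashed line is the median of all genes tested (-0.12). Crebbp (red) passed the adjusted threshold; the interval of Kmt2c also lies above 0 but its adjusted p is 0.0703, and Kdm6b has the widest interval.

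The 8 genes differed in how much they varied between tumors of a group. The residual SD within groups was 0.139 for Setd2 and 0.158 for Ep300 on the log2 scale, and only 9.78% and 14.6% of the 10404 genes in the upper part of the table by mean had a lower one. It was 0.331 for Kmt2c and 0.480 for Kdm6b, against a median of 0.270 for those genes. PRC2 loss tumor 1 had the highest value of its group for 6 of the 8 genes, all but Kmt2c and Kdm6a, and the lowest Kdm6a value. Wildtype tumor 2 had the lowest wildtype Crebbp, Ep300, Nsd1, Setd2 and Kdm6b values, and it also had the highest macrophage sum of all tumors.

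A scaling factor of a tumor cancels when related genes of the same tumor are subtracted, and 4 such pairs were compared. Crebbp minus Ep300 was -0.48, -0.94 and -0.87 in PRC2 loss tumors 1 to 3, against -1.42, -1.75, -1.67, -1.34 and -1.50 in wildtype tumors 1 to 5. All PRC2 loss tumors were above all wildtype tumors, with a shift of 0.77 on the log2 scale, so that the Crebbp to Ep300 ratio was 1.71-fold higher in PRC2 loss. Such separation was common, at 38.3% of single genes tested, and its share over other gene pairs was not computed. The two-sided exact permutation p was 0.0179, the smallest the design allows, and 0.0714 after Benjamini-Hochberg adjustment over the 4 pairs. The shift lay between 0.63 and 0.86 in each of 13 alternatives, among them each tumor left out, shared codes averaged (0.84), both Y-expressing tumors left out (0.64) and wildtype tumors 1 and 2 left out (0.74).

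Setd2 minus Nsd1 was -1.08, -0.96 and -0.97 in PRC2 loss tumors 1 to 3, against -0.72, -0.50, -0.91, -0.71 and -0.67 in wildtype tumors 1 to 5. The groups did not overlap, with wildtype tumor 3 close to the PRC2 loss tumors, and the shift was -0.30 on the log2 scale (two-sided exact permutation p = 0.0357, adjusted p = 0.0714). Kmt2d minus Kmt2c averaged 0.57 ± 0.08 (SD, n = 3) for PRC2 loss tumors, against 0.98 ± 0.45 (SD, n = 5) for wildtype tumors, of which 3 and 4 lay slightly below the PRC2 loss group (two-sided exact permutation p = 0.214). Kdm6b minus Kdm6a averaged 0.06 ± 0.35 (SD, n = 3) for PRC2 loss tumors, against 0.56 ± 0.66 (SD, n = 5) for wildtype tumors, with overlapping groups (two-sided exact permutation p = 0.268). None of the 4 pairs passed after adjustment.

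**Figure D4:**
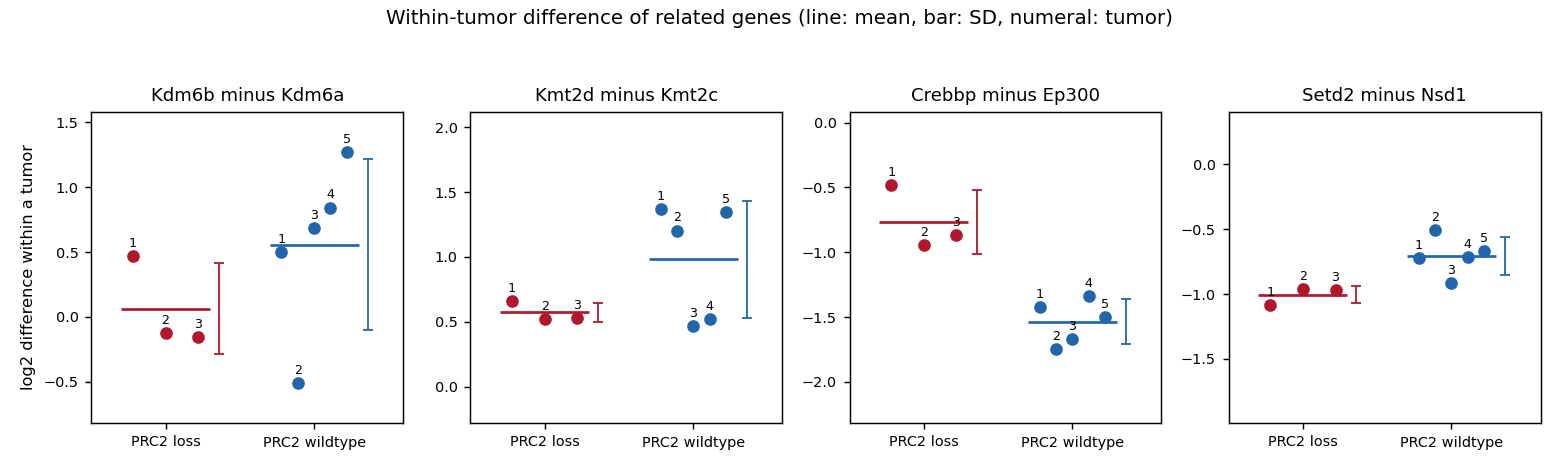
Difference of the log2 values of each pair of related genes within a tumor (vertical axis, each panel spanning the same range), PRC2 loss tumors left and wildtype tumors right, with numerals for tumors, lines for means and bars for SDs. Crebbp minus Ep300 separates the groups (-0.94 to -0.48 in PRC2 loss, -1.75 to -1.34 in wildtype), and Setd2 minus Nsd1 separates them narrowly. Separation was also seen for 38.3% of single genes tested.

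Levels were compared between genes only per kilobase of merged GENCODE exon, on the log2 scale. In PRC2 loss tumors Nsd1 was highest (8.91 ± 0.22, SD, n = 3), followed by Setd2 (8.61 ± 0.16), Kmt2d (8.54 ± 0.20), Kdm6b (8.29 ± 0.11), Ep300 (8.18 ± 0.04), Kdm6a (7.96 ± 0.26), Kmt2c (7.95 ± 0.16) and Crebbp (7.49 ± 0.28). Neighbours in this order differed by less than the sum of their SDs, except Kmt2c and Crebbp. In wildtype tumors Kdm6b (8.68 ± 0.58, SD, n = 5), Nsd1 (8.67 ± 0.24) and Setd2 (8.67 ± 0.13) were level, and Ep300 (8.42 ± 0.19) and Kmt2d (8.37 ± 0.15) followed. Kdm6a (7.85 ± 0.23), Kmt2c (7.36 ± 0.39) and Crebbp (6.96 ± 0.23) were lowest there. Crebbp was the lowest of the 8 in both groups.

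Among the 10404 genes in the upper part of the table by mean, those whose standardized profile over the 8 tumors was nearest to Crebbp were Zhx3, a zinc finger and homeobox gene, and Tfdp2, a partner of E2F factors, with root mean square differences of 0.193 and 0.220 SD. Zhx3 was higher in PRC2 loss by a log2 difference of 1.49 (limma adjusted p = 0.0211) and Tfdp2 by 1.01 (limma adjusted p = 0.0108). They were chosen for this likeness. Among the 8 genes, Crebbp and Nsd1 had the nearest profiles, with a root mean square difference of 0.503 SD, and Kdm6a and Setd2 the most distant, at 1.59 SD.

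Partners and opponents of these enzymes were followed in 11 lists of 104 genes, of which 7 rose and 15 fell (21.2%, median log2 difference -0.08), against 35.7% of all genes. Many of these calls were lost with housekeeping centring or when tumors sharing a code were not counted singly. Calls over all genes fell too when codes were used, from 7424 of 20807 to 5919 with the code as a random block. They fell to 4226 with shared codes averaged. Centring on genes at or above the median mean kept the counts of every list with a call, with 1 exception. In that fit 1 of the other H3K36 methylation genes was also higher. With the tumor code as a random block, Wdr82, Ncoa3, Hdac1, Hdac2, Kdm4b and Brd9 lost their calls (limma adjusted p from 0.0513 to 0.0772). With shared codes averaged, so did Ash2l, Pagr1a, Nsd2, Riox1, Actl6a, Smarcc1, Epop, Ezh2 and Suz12 besides these (limma adjusted p from 0.0544 to 0.116 over both sets), while Dpy30, Cxxc1, Men1, Hat1, Ncoa1, Mta2, Riox2, Kdm2a, Smarca4, Eed, Phf19 and Ezh1 kept theirs. With housekeeping centring Ash2l, Men1, Mta2, Hdac2, Riox1, Kdm2a, Smarca4, Actl6a, Smarcc1, Ezh2 and Suz12 lost their calls, and Wdr82, Hdac1, Kdm5c and Brd2 changed sign. Without both Y-expressing tumors no SWI/SNF gene and none of the other H3K36 methylation genes passed, and 1 of the deacetylase list did. Over all genes that fit had fewer calls as well, 4623 of 20591. Without wildtype tumors 1 and 2, 4 partners of Kmt2c and Kmt2d and 5 SWI/SNF genes were lower. Lower calls over all genes were also more frequent in that fit, 4424 of 20615, against 4087 of 20807 in the main fit.

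Among 7 partner subunits of the Kmt2c and Kmt2d complexes 1 rose and 2 fell (42.9% called, against 35.7% of all genes, median -0.28). Housekeeping centring gave 3 higher and 1 lower. Dpy30, a shared core subunit, was 8.91, 9.01 and 9.06 in PRC2 loss tumors 1 to 3, against 10.06, 10.49, 9.98, 10.02 and 10.10 in wildtype tumors 1 to 5, with no overlap and a 2.20-fold fall (limma adjusted p = 0.00105). The core subunit Ash2l fell by 0.62 log2 units (limma adjusted p = 0.0281) and Pagr1a, a subunit of the Kmt2c and Kmt2d complexes, rose by 0.84 (limma adjusted p = 0.00745). Among 9 genes of the other H3K4 methyltransferase complexes 1 rose and 2 fell (33.3% called, median 0.05), against 5 higher and 0 lower with housekeeping centring. Cxxc1, the CpG-binding subunit of the Setd1 complexes, was 2.07-fold higher (limma adjusted p = 0.000889), Men1, the adaptor of Kmt2a and Kmt2b, 1.63-fold lower (limma adjusted p = 0.0073) and Wdr82, a Setd1 subunit, 1.25-fold lower (limma adjusted p = 0.0345). None of 6 H3K4 demethylase genes passed limma's test, and 0 had an unadjusted p under 0.05 (median -0.15). That list holds the Y-linked Kdm5d, at 10.59 in PRC2 loss tumor 1, 10.64 in wildtype tumor 5 and at most 2.45 elsewhere, which could hardly pass. Kdm5c, an X-linked one, had the highest mean of that list and a log2 difference of -0.25 (limma adjusted p = 0.273). The same tumors had the lowest Kdm5c of their groups (11.71 and 12.05).

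Among 10 other acetyltransferases 2 rose and 1 fell (30% called, median 0.08), against 5 higher and 1 lower with housekeeping centring. Hat1, which acetylates newly made histones, was 9.47, 9.39 and 9.35 in PRC2 loss tumors 1 to 3, against 10.46 to 10.70 in wildtype, a 2.22-fold fall (limma adjusted p = 0.000285). The nuclear receptor coactivators Ncoa1 and Ncoa3 rose 1.86-fold and 1.81-fold (limma adjusted p = 0.00958 and 0.0293). Among 17 deacetylase, NuRD and NCoR genes 3 fell and none rose (17.6% called, against 35.7% of all genes, median -0.17). Housekeeping centring gave 3 higher and 0 lower, and the random block left 1 lower. Hdac1 fell by 0.38, Hdac2 by 0.70 and Mta2, a NuRD subunit, by 0.67 log2 units (limma adjusted p = 0.0318, 0.0377 and 0.00615). The acetyl-lysine readers of the BET family had no limma call among 4 genes (median -0.11), with 1 lower at an unadjusted p under 0.05, Brd2, which also had the highest mean and a log2 difference of -0.40 (limma adjusted p = 0.106).

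Over the lists of H3K36 methylation and H3K36 demethylase genes, with 7 genes each, 4 fell and 2 rose. The share called was 14.3% and 71.4%, against 35.7% of all genes. With housekeeping centring 2 of the methylation list and 3 of the demethylase list were higher and 1 of each lower. Nsd2, which like Nsd1 dimethylates H3K36, was 10.95, 11.01 and 10.49 in PRC2 loss tumors 1 to 3, against 12.08, 11.62, 13.35, 13.47 and 12.48 in wildtype tumors 1 to 5, a 3.45-fold fall (limma adjusted p = 0.0125) and the only call among the 7 other H3K36 methylation genes (median 0.01). Of 7 genes listed as H3K36 demethylases 3 fell and 2 rose (median -0.47, 71.4% called, against 35.7% of all genes). Kdm2a fell by 0.80 log2 units (limma adjusted p = 0.00817). The ribosomal oxygenases Riox1 and Riox2, whose place among H3K36 demethylases is less settled, fell by 0.87 and 1.44 (limma adjusted p = 0.00614 and 0.000462). The share called counts both. Kdm4b rose by 0.66 (limma adjusted p = 0.0204), and Kdm4c, named after its values were seen, by 0.41 (limma adjusted p = 0.0445). Without wildtype tumors 1 and 2, 1 of the demethylase list rose and 3 fell, and without both Y-expressing tumors or with shared codes averaged none rose and 2 fell. Calls over all genes in these fits are given above.

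Of 25 subunits of SWI/SNF, a chromatin remodeller that evicts Polycomb complexes, 3 fell and 1 rose (16% called, against 35.7% of all genes, median -0.10). Housekeeping centring gave 11 higher and 0 lower. The ATPase gene Smarca4 fell by 0.73, the core subunit Smarcc1 by 0.99 and Actl6a by 0.78 on the log2 scale, and Brd9 rose by 0.50 (limma adjusted p = 0.00651, 0.0191, 0.014 and 0.0355). None of the 8 genes of histone H3.3 and its chaperones passed limma's test, and 2 were higher at an unadjusted p under 0.05 (median 0.13); H3f3b had a log2 difference of 0.14 (limma adjusted p = 0.694) and has close copies that can share reads. None of 4 further genes with reported H3K27 demethylase activity or kinship, Uty, Phf8, Kdm7a and Phf2, passed it either, and 0 had an unadjusted p under 0.05 (median 0.19); Phf2 had a log2 difference of 0.22 (limma adjusted p = 0.333). In the PRC2 list 2 of 12 subunits rose and 5 fell (58.3% called, against 35.7% of all genes), whereas housekeeping centring gave 5 higher and 2 lower. The genes that fell include Eed, which was floxed in the PRC2 loss group by design. The accessory subunit genes Phf19 and Epop stood at its ends, Phf19 6.40-fold lower and Epop 2.41-fold higher (limma adjusted p = 0.000887 and 0.00473). Ezh2, the main H3K27 methyltransferase, was 2.00-fold lower and Ezh1, its relative in resting cells, 2.07-fold higher (limma adjusted p = 0.00832 and 0.00431), and the core subunit gene Suz12 was 1.72-fold lower (limma adjusted p = 0.0196). Markers of dividing cells fell beside these groups, as given above. With the mean of those markers as a covariate no gene of the table passed in limma (3179 at an unadjusted p under 0.05), but that mean does not overlap between the groups, and the 2 cannot be told apart.

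**Figure D5:**
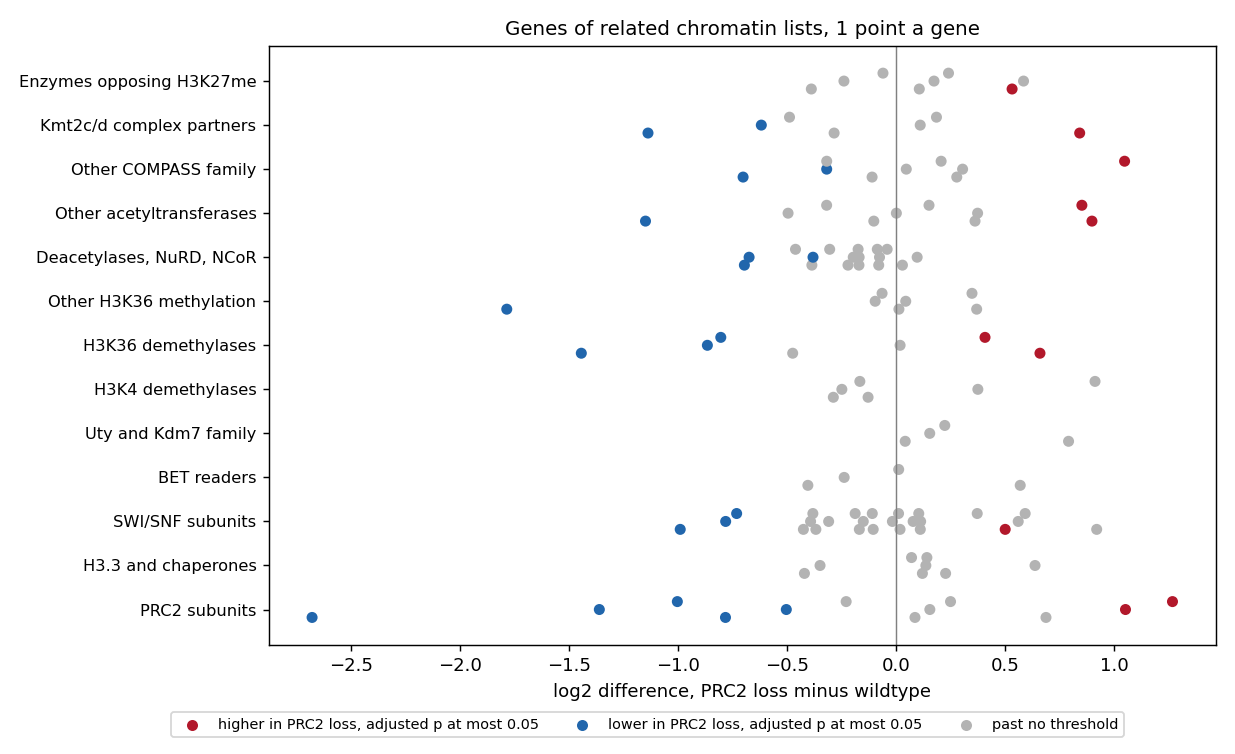
Log2 difference, PRC2 loss minus wildtype (horizontal axis), of every tested gene of each chromatin list, 1 point a gene; red points were higher and blue points lower at a limma adjusted p of at most 0.05, and grey points did not pass. The 8 enzymes in the top row lie between -0.39 and 0.58 with 1 call, while the PRC2 row reaches from -2.68 to 1.27.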

How the data were processed

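Deposited values were quantile-normalized log2 gene counts made by the authors, in 1 table of 8 tumors. The offset before the log is not stated, library totals are not used here and the depth is unknown, so no counting interval is given. The submitters' processing notes name Trim Galore, STAR 2.6, Partek 7.0 and mm10; the counting method, annotation and strand use were not stated. Columns were matched to tumors by description and grouped by title. The titles call the tumors biological replicates.

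After 136 genes constant in all tumors were left out, 20807 were fitted in limma 3.58.1 (R 4.3.3) with trended empirical Bayes variances, and two-sided p-values adjusted by Benjamini-Hochberg across these genes at a threshold of 0.05. Folds are antilogs of log2 differences. Marker sums add the linear values of the listed genes. Members and lists were chosen with earlier results of these data known. Named list genes were up to 4 a list by smallest p past the threshold, otherwise the 1 with the highest mean, together with Eed, Ezh2, Ezh1 and Suz12; the 2 nearest profiles were taken for the called member. Alternatives were a filter on low genes, pseudocounts of 1 and 16, other variance priors, weights per tumor, 2 kinds of centring, shared codes averaged or as a block, a block for the replicate number, and Y-linked genes, macrophage or dividing-cell markers as covariates, and leaving out each tumor. Fits without wildtype tumors 1 and 2, without both Y-expressing tumors and with a muscle covariate were added after seeing the data.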

Additional observations from a re-analysis of the deposited data

Results flagged for a closer look

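In the wildtype group, Dpy30 in tumor 2 (10.49) stood apart from the other 4 tumors (9.98 to 10.10): its gap to the nearest of them was 0.758 of the whole range, above the limit of 0.71 for 5 tumors. Of 43 wildtype groups of values looked at, 1 passed that limit, and chance gives about 1 in 20.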

How the results depend on the processing

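The Crebbp call held in 9 of 26 alternatives. Its log2 difference was 0.53 with an untrended prior (limma adjusted p = 0.0707), 0.39 with weights per tumor (0.0621), 0.57 with shared codes averaged (0.125), 0.55 with the code as a random block (0.0671), 0.44 without both Y-expressing tumors (0.110) and 0.40 without wildtype tumors 1 and 2 (0.106), and 0 members were then called higher. Leaving out 1 tumor gave 0.38 to 0.64, with 0 to 1 members higher; the other members ranged from 0.02 to 0.26 (Kdm6a), -0.60 to -0.24 (Kdm6b), 0.51 to 0.73 (Kmt2c), 0.10 to 0.29 (Kmt2d), -0.28 to -0.18 (Ep300), 0.11 to 0.32 (Nsd1) and -0.15 to -0.01 (Setd2). Housekeeping centring gave 5 members higher: Kdm6a 0.61, Kmt2c 1.08, Kmt2d 0.67, Nsd1 0.74 and Crebbp 1.03; signs changed for Kdm6b (0.11), Ep300 (0.26), Setd2 (0.44), Wdr82 (0.18), Kdm5c (0.25), Hdac1 (0.12) and Brd2 (0.096). The macrophage covariate gave 0 members higher and 1 lower, Kdm6b (-1.56), and changed the sign of Kmt2d (-0.020), Crebbp (-0.015), Nsd1 (-0.24), Phf2 (-0.20) and H3f3b (-0.16); Kmt2c was 0.031. The dividing-cell covariate left 0 calls, with Crebbp at 1.48, and changed the sign of Kdm6a (-0.28), Kdm6b (2.08), Kmt2d (-0.11), Ep300 (0.16), Setd2 (0.44), Ash2l (0.68), Ncoa3 (-1.50), Hdac2 (1.15), Nsd2 (1.81), Kdm4b (-0.69), Smarca4 (0.26), Actl6a (0.66), Smarcc1 (1.40), Brd9 (-0.47), Ezh1 (-0.15), Ezh2 (0.19) and Suz12 (0.57). Kdm6b was the 1 member called lower without wildtype tumors 1 and 2 (-0.79), where H3f3b was -0.051, and with the muscle covariate (-0.55). The cause was not tested. All 4 pair differences kept their direction in 13 alternatives.

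Whether replicate numbers pair the tumors is not stated, and correlations from so few tumors cannot settle it. Deviations from the group means correlated at -0.208, 0.146 and -0.095 for numbers 1 to 3. Over those 6 tumors Crebbp was 0.64 with the replicate block (limma adjusted p = 0.0701) and 0.64 without it (0.0576), with 0 members higher in both, and 3496 genes passed with the block against 5279 without.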
